A study of Mus musculus with 20 samples.

Results

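Genes that mark the filtration unit and the vessels of the kidney were read out in whole-kidney RNA. They are 39 of the 24762 genes in the joined count tables, taken by symbol from named lists of 12 podocyte, 16 endothelial and 11 mural cell genes, and all 39 were found. Podocytes are the epithelial cells that cover the glomerular capillaries and hold the slit diaphragm, the last barrier of the filter. Endothelial cells line the glomerular, peritubular and larger vessels, and mural cells (smooth muscle cells, pericytes and mesangial cells) surround them and set their tone. In a mouse kidney the bulk of the RNA comes from the tubule, so the level of such a gene in whole tissue is read against a background of tubule transcript.

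The kidneys came from male C57BL/6J mice whose testes had been removed and that then received testosterone or vehicle for 4 days before the tissue was frozen. The 4 groups, of 5 libraries each, were wild type with vehicle, wild type with testosterone, ARLmon/Y with vehicle and ARLmon/Y with testosterone. ARLmon is a mutation of the androgen receptor that impairs the pairing of its ligand-binding domains. The androgen receptor is a hormone-bound transcription factor, and the comparison asks how far the kidney's response to testosterone needs that contact. All groups share the orchidectomy, so none is of intact males, and how their hormone levels compare with those of intact males was not tested. Nothing in the labels ties each library to its own animal. The p-values therefore measure the spread between these libraries, which may be technical.

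Reads assigned to genes ran from 8342000 to 15422018 per library in wild type with testosterone, from 8618311 to 38101526 in wild type with vehicle and from 10236738 to 18609328 in ARLmon. Between 18781 and 21719 genes were detected per library. Libraries are called by the codes of the deposited tables: GC078602 to GC078606 are wild type with vehicle, GC078607 to GC078611 wild type with testosterone, GC078612 to GC078616 ARLmon with testosterone and GC078617 to GC078621 ARLmon with vehicle. Within the wild type vehicle group 2 libraries stood apart for the marker genes. GC078606 had the highest value for 7 of 12 podocyte and 10 of 16 endothelial genes together with the lowest share of reads from 20 proximal tubule genes (2.02% of its reads, against 2.81% to 3.24% in the other 4). GC078604 had the lowest value for 15 of 16 endothelial genes. Their part in the results was not tested, and values without them are given where they change a call or a value.

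The labelled tissue carried the defining genes of all 3 cell classes, each with at least 11 reads in every library, the lowest being Cnn1. On a scale that divides by exon length (RPKM), the levels in the wild type vehicle group spread over a wide range within each class. Among podocyte genes Podxl, which codes for the anionic coat protein podocalyxin, was highest at 49.6 ± 8.25 RPKM (SD, n = 5), and Magi2, a scaffold of the slit diaphragm, was lowest at 0.861 ± 0.216. Nphs1, the gene of nephrin, stood at 5.21 ± 0.820 RPKM and Wt1, a transcription factor that podocytes keep through life, at 2.02 ± 0.235. Among endothelial genes Plvap, whose protein forms the diaphragms of fenestrae in peritubular capillaries, led with 53.1 ± 12.9 RPKM and Vwf, the clotting factor of larger vessels, closed the list with 0.327 ± 0.0581. Acta2, smooth muscle actin, was the highest mural gene at 39.5 ± 8.54 RPKM, and Cnn1, calponin, a marker of mature smooth muscle, the lowest at 1.63 ± 0.244. All values below are CPM (counts scaled to a common library total) with TMM scaling, which compares 1 gene between libraries and not genes with each other.

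In wild type kidneys 7 of 12 podocyte genes fell with testosterone. They were lower at an adjusted p below 0.05 and no podocyte gene was higher, where 15.7% of all 15549 tested genes passed, 6.36% lower and 9.36% higher (edgeR's quasi-likelihood test, Benjamini-Hochberg adjustment). The 7 were Nphs1, Podxl, Synpo, Wt1, Ptpro, Nes and Cdkn1c. The median log2 difference of the 12 was -0.51, beside -0.03 over all tested genes. At an unadjusted p below 0.05 there were 8 of 12, beside 28.8% of all. All 7 calls were lost when the counts were scaled to distal nephron genes, where 215 of all 15549 tested genes were lower and 3690 higher. In whole-kidney RNA fewer cells of a type and less RNA per cell cannot be told apart.

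Nphs1, the adhesion protein that spans the slit between foot processes, measured 38.1, 26.8, 30.6, 37.98 and 38.8 CPM in the vehicle libraries and 19.8, 25.0, 26.5, 18.2 and 24.2 CPM with testosterone. Every testosterone library lay below every vehicle library, although GC078603 and GC078609 nearly met. The log2 difference was -0.60 (SE 0.13, edgeR adjusted p = 0.0019). Podxl, the main sialoprotein of the podocyte surface, measured 284, 224, 230.0, 289.8 and 332 CPM with vehicle and 191, 187, 190.3, 175 and 213 CPM with testosterone. The groups were again apart, with the 3 highest vehicle libraries well clear of the rest. Its log2 difference was -0.51 (SE 0.10, edgeR adjusted p = 0.0016). Synpo codes for synaptopodin, an actin-binding protein of the foot processes. It read 69.8, 56.9, 58.2, 68.3 and 81.7 CPM with vehicle and 44.5, 45.2, 46.9, 42.8 and 51.0 CPM with testosterone, without overlap. The testosterone libraries lay close together, and the log2 difference of -0.54 (SE 0.09, edgeR adjusted p = 2.0e-04) had the smallest p among the podocyte genes.

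Nes, the intermediate filament nestin, measured 46.2, 38.1, 47.1, 48.1 and 78.3 CPM with vehicle and 28.9, 39.3, 30.6, 29.2 and 37.99 CPM with testosterone. GC078606 stood far above the other vehicle libraries, and the groups overlapped at GC078603. The log2 difference was -0.63 (SE 0.15, edgeR adjusted p = 0.0065). Wt1 and Ptpro, a receptor tyrosine phosphatase of the apical podocyte membrane, fell by 0.50 and 0.53 on the log2 scale, and Cdkn1c, the cell cycle inhibitor p57 that mature podocytes hold, fell by 0.57. Of the 7 genes, Nphs1, Podxl, Synpo and Wt1 were without overlap between the groups, where 4.21% of all tested genes were lower and 8.34% higher without overlap.

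The 5 podocyte genes that did not pass were Cd2ap, Magi2, Kirrel, Tcf21 and Clic5. Cd2ap, an adaptor that ties nephrin to actin and that many other cells also carry, differed by -0.06 (95% interval -0.34 to 0.22). Magi2 differed by -0.15, Kirrel, the slit protein Neph1, by -0.36, and Tcf21, a transcription factor of podocytes and stroma, by -0.40. Clic5, a chloride channel family protein of foot processes that is also found in endothelium, pointed the other way. It read 131, 115, 76.5, 113 and 92.4 CPM with vehicle and 139, 128, 126, 136 and 132 CPM with testosterone. The testosterone libraries were tight and high, while GC078604 and GC078606 were low among the vehicle libraries. The log2 difference of 0.32 (SE 0.16) did not pass (edgeR adjusted p = 0.20), and it turned to -0.10 when the counts were scaled to the proximal tubule genes. It stayed positive when scaled by library size or to distal nephron genes, and in the distal fit the only podocyte call was a higher one.

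**Figure D1:**
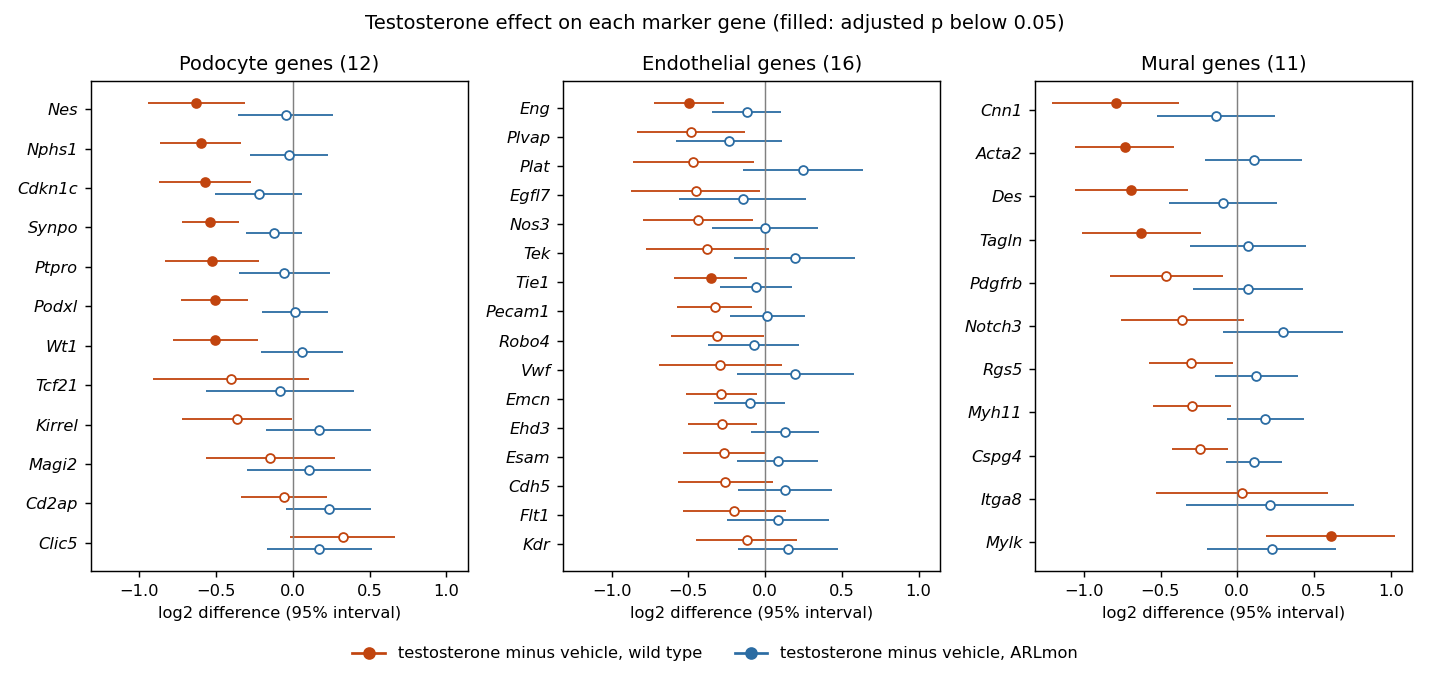
Log2 difference between testosterone and vehicle for each of the 39 genes, in wild type (orange) and ARLmon kidneys (blue), with 95% intervals from the edgeR fit; filled points passed an adjusted p below 0.05. In wild type 13 genes are filled on the left and Mylk alone on the right, and no ARLmon point is filled. Values are under TMM scaling; in wild type, Clic5 and Itga8 change sign when scaled to proximal tubule genes, Itga8 also with library size alone, and scaling to distal nephron genes changes the sign of 2 podocyte, 3 endothelial and 1 mural gene.

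All 16 endothelial genes had a negative log2 difference with testosterone in wild type, from -0.50 to -0.12 with a median of -0.32, but only Eng and Tie1 passed the test, and under scaling to distal nephron genes neither passed and 13 of 16 were negative. The share of all tested genes that were lower is the 6.36% given above, and 215 of 15549 under scaling to distal nephron genes. At an unadjusted p below 0.05 (edgeR, TMM scaling) there were 10 of 16, beside 28.8% of all. Eng, endoglin, a co-receptor for TGF-beta family ligands, measured 119, 113, 102, 107 and 148 CPM with vehicle and 77.5, 90.0, 83.2, 80.6 and 85.7 CPM with testosterone. The groups did not overlap, and the log2 difference was -0.50 (SE 0.11, edgeR adjusted p = 0.0028). Tie1, a receptor tyrosine kinase that works with the angiopoietin receptor, measured 39.2, 42.3, 30.5, 32.8 and 48.2 CPM with vehicle and 25.8, 34.7, 29.5, 31.9 and 28.3 CPM with testosterone. These groups overlapped, and the log2 difference of -0.35 (SE 0.12, edgeR adjusted p = 0.040) lay near the threshold.

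Of the other 14, Plvap, Pecam1, Ehd3, Nos3 and Emcn lay nearest the threshold. Plvap read 101, 109, 78.6, 92.6 and 147 CPM with vehicle and 59.5, 81.0, 70.3, 81.1 and 84.4 CPM with testosterone. Its lowest vehicle library, GC078604, lay within the testosterone range, and its log2 difference was -0.48 (SE 0.17, edgeR adjusted p = 0.056). Pecam1, the junction protein CD31, differed by -0.33 (SE 0.12, edgeR adjusted p = 0.063), and Ehd3, a membrane-trafficking protein enriched in glomerular endothelium, by -0.28 (SE 0.11, edgeR adjusted p = 0.087). Kdr, the main receptor for VEGF-A, had the smallest difference, -0.12 (95% interval -0.45 to 0.21), and was at 0.15 under scaling to distal nephron genes.

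The endothelial count turned on single libraries. Without GC078604 9 of 16 genes were lower, and without any 1 of GC078602, GC078603, GC078606, GC078607, GC078609, GC078610 and GC078611 only 1 was. Tek, the angiopoietin receptor, shows the pattern, since it measured 18.2 CPM in GC078604 and 40.5 to 43.6 CPM in the other vehicle libraries, against 23.8 to 32.2 CPM with testosterone. Eng shares exon bases with Fpgs, a gene on the opposite strand that has 26371 reads over the 20 libraries, and Egfl7 likewise with Agpat2 (16846 reads). The strand setting of the counting is not given in the sources used here, so reads of such pairs cannot be told apart.

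Sequence upstream of the start was at hand for 9 of the endothelial genes, from RefSeq on GRCm38.p6. It was searched on both strands for GGAAGT, a form of the site bound by ETS factors, which serve as regulators of endothelial genes. Within 250 bases before the start it was found in 5 of these 9 genes (Egfl7, Eng, Flt1, Kdr and Tie1), in 1 of 8 podocyte genes, in none of 8 mural genes, and in 19.7% of 32851 windows of that length. The windows of Eng (chr2:32646345-32646594, plus strand) and Tie1 (chr4:118489850-118490099, minus strand) are shown because they are the endothelial genes that passed. Each is written 5′ to 3′ along its gene, ending at the base before the start, with GGAAGT or its complement ACTTCC in capitals.
Eng: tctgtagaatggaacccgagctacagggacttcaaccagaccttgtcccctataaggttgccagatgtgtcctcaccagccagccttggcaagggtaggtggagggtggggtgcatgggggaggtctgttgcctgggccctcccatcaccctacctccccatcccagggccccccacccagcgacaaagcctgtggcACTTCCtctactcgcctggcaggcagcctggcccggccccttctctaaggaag
Tie1: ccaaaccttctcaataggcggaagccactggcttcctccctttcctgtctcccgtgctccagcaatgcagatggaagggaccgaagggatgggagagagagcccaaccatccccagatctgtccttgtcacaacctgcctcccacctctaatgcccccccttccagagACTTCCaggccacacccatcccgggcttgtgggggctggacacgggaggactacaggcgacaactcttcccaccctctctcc
Each holds 1 match, on the strand opposite to the gene. The start used for Tie1 lies inside the gene as the GENCODE annotation draws it (to base 118490061), and so does its match. Kdr and Flt1 hold the letters too and did not pass the test, so the matches do not sort the called from the uncalled genes, and a match is a description of the sequence only.

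The mural genes Acta2, Cnn1, Tagln and Des fell with testosterone in wild type, and Mylk rose. Of the 11 mural genes 4 were thus lower and 1 higher, beside 6.36% and 9.36% of all tested genes, and the median was -0.36. At an unadjusted p below 0.05 (edgeR) there were 9 of 11, beside 28.8% of all. Scaled to distal nephron genes, the 4 lower calls were lost and Mylk kept its call, beside 215 lower and 3690 higher of all 15549 tested genes. Acta2 measured 77.3, 74.9, 85.6, 76.7 and 119.5 CPM with vehicle and 47.8, 57.0, 62.0, 44.5 and 49.5 CPM with testosterone. The groups were apart even with GC078606 set aside. Its log2 difference was -0.73 (SE 0.15, edgeR adjusted p = 0.0020). Cnn1 measured 4.16, 3.60, 5.42, 4.42 and 4.66 CPM with vehicle and 1.49, 3.26, 2.91, 2.21 and 2.97 CPM with testosterone, also without overlap. Its log2 difference of -0.79 (SE 0.20, edgeR adjusted p = 0.0083) was the lowest of the 39 genes.

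Des codes for desmin, the intermediate filament of muscle and mesangial cells. It read 17.1, 15.5, 16.6, 17.5 and 33.9 CPM with vehicle and 11.7, 13.4, 11.7, 11.7 and 13.1 CPM with testosterone, without overlap. The log2 difference of -0.69 (SE 0.18, edgeR adjusted p = 0.0096) was -0.44 without GC078606. Tagln, the actin-binding protein SM22, measured 60.8, 47.8, 57.9, 62.3 and 112 CPM with vehicle and 42.4, 44.0, 44.6, 42.2 and 46.6 CPM with testosterone. The ranges did not overlap, but GC078606 was far above all others. The log2 difference was -0.63 (SE 0.19, edgeR adjusted p = 0.025). Without GC078606 it was -0.38 and no longer passed, and it also missed the threshold without GC078607 or GC078610. The mural count was 3 without GC078606 and 3 without GC078610. Tagln shares exon bases with Pcsk7 on the opposite strand (14342 reads).

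Mylk codes for the kinase that phosphorylates myosin light chain to start contraction, and a long non-muscle form is made in other cells. It measured 171, 159, 75.0, 154 and 136 CPM with vehicle and 171, 167, 193, 241 and 287 CPM with testosterone. The ranges overlapped, with 2 testosterone libraries clearly higher and GC078604 clearly lower than the rest. The log2 difference of 0.61 (SE 0.20) passed narrowly (edgeR adjusted p = 0.046), was 0.45 without GC078604, and lost its call in 11 of 20 fits that left out 1 library. Pdgfrb, the receptor that recruits pericytes, differed by -0.46, Notch3, a receptor of arterial smooth muscle, by -0.36, and Rgs5, a pericyte gene that damps G protein signals, by -0.30. Myh11, smooth muscle myosin, differed by -0.30, Cspg4, the pericyte proteoglycan NG2, by -0.24, and Itga8, the mesangial integrin chain, by 0.03. None of these 6 passed.

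Upstream sequence of 8 mural genes was searched on both strands for AGAACA, the half-site recognised by the androgen receptor and its relatives. It was found within 250 bases before the start in 2 of 8 mural, 2 of 8 podocyte and 2 of 9 endothelial genes, and in 16.1% of all 32851 windows. The 2 mural genes were Acta2 and Mylk, which moved in opposite directions, and their windows are shown for that reason (Acta2, chr19:34255374-34255623, minus strand; Mylk, chr16:34784700-34784949, plus strand). AGAACA and its complement TGTTCT are in capitals, in the orientation used above.
Acta2: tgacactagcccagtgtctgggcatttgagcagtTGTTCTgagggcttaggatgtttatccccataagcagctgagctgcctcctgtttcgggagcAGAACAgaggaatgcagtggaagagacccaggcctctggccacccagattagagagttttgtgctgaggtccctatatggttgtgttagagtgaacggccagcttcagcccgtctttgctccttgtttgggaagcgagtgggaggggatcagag
Mylk: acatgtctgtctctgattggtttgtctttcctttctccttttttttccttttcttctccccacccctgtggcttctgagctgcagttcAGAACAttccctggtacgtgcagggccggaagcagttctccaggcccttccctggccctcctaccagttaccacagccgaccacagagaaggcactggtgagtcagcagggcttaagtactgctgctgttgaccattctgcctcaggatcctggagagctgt
Acta2 holds the letters at a pair of places, once on each strand, and Mylk at 162 bases before its start. The start used for Mylk lies inside the gene as GENCODE draws it, so the window belongs to a shorter transcript. The same holds for Acta2, whose gene reaches to base 34255590, so both of its matches lie within the gene. The serum response element (CArG box) that smooth muscle genes are known for was in none of the 8 mural windows in its strict form and in 1.47% of all windows. No upstream sequence was at hand for Tagln, Myh11 and Pdgfrb, so they were not searched. With at most 1 letter changed it was in 2 of 8 mural genes (Acta2 and Cspg4), 2 of 8 podocyte and 3 of 9 endothelial genes, and in 18.6% of all windows.

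**Figure D2:**
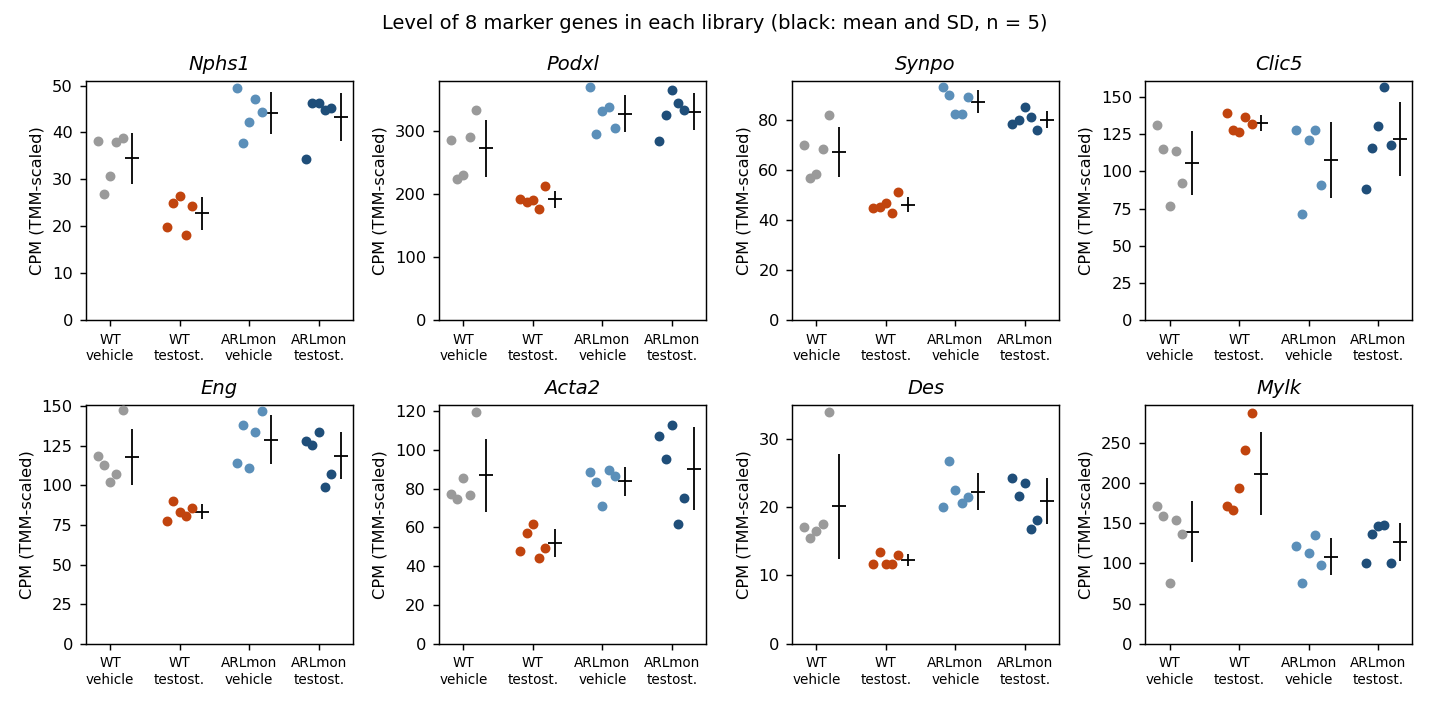
CPM of 8 marker genes in each library, by group; each point is a library, and the black bar gives the mean and SD of 5. Wild type with testosterone has the lowest mean for Nphs1, Podxl, Synpo, Eng, Acta2 and Des and the highest for Mylk and Clic5, and GC078606 is the high point of Des with vehicle at 33.9 CPM.

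In ARLmon kidneys no marker gene passed the test for testosterone against vehicle. None of the 15549 tested genes did under edgeR (percent called 0), and 5.22% had an unadjusted p below 0.05, as did 0 of the 39. DESeq2 and limma-voom called none of the 39 either. The groups overlapped in every marker gene, while 0.386% of all tested genes were lower and 0.392% higher without overlap. The medians were -0.01 for podocyte, 0.05 for endothelial and 0.11 for mural genes. Nphs1 measured 49.4, 37.8, 42.2, 47.1 and 44.4 CPM with vehicle and 34.3, 46.2, 46.3, 44.8 and 45.1 CPM with testosterone, with 1 low library, GC078612, in otherwise matching ranges. Its log2 difference was -0.03, with a 95% interval of -0.28 to 0.23. Podxl was at 0.01 (interval -0.20 to 0.23), Eng at -0.12 (interval -0.34 to 0.10) and Acta2 at 0.11 (interval -0.21 to 0.42). An interval that spans 0 does not show that nothing moved.

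Between genotypes under vehicle, Synpo alone passed. It measured 92.9, 89.7, 82.2, 82.4 and 89.0 CPM in ARLmon, all above the wild type range of 56.9 to 81.7 CPM. The log2 difference was 0.38 (SE 0.09, edgeR adjusted p = 0.012), where 4.37% of all tested genes passed, 1.99% higher and 2.38% lower, and where 2.18% were higher and 2.39% lower without overlap. The call was lost without GC078603, at 0.32, and without GC078606 there were 2 podocyte calls and 1 mural call. Ptpro was at 0.44 (edgeR adjusted p = 0.087) and was also without overlap, and Nphs1 was at 0.36 (edgeR adjusted p = 0.11). The podocyte median was 0.29, the endothelial 0.11 and the mural -0.05. Scaled to distal nephron genes, 5 of 12 podocyte, 12 of 16 endothelial and 3 of 11 mural genes changed sign. The median of all tested genes was -0.26 under that scaling. Under TMM scaling no endothelial or mural gene passed (none by DESeq2 or limma-voom). At an unadjusted p below 0.05 (edgeR) there were 5 of 12 podocyte, 1 of 16 endothelial and 1 of 11 mural genes, beside 17.9% of all tested genes.

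Under testosterone the genotypes differed in most marker genes, and under TMM scaling the wild type testosterone group was the low one. Of 12 podocyte genes 10 were higher in ARLmon, of 16 endothelial genes 13, and of 11 mural genes 7, with Mylk lower. Of all tested genes 31.1% passed, 15.6% higher and 15.5% lower. The medians were 0.76, 0.51 and 0.46, beside 0.04 over all genes. Scaled to distal nephron genes, 5 podocyte, 0 endothelial and 1 mural gene passed, where 355 of all 15549 tested genes were higher and 7161 lower. These marker counts take both directions together, so they are not the number of higher calls that were kept. Clic5 and Mylk kept their negative sign under that scaling, and the mural genes Cspg4, Itga8 and Myh11 turned negative. This comparison shares the wild type testosterone libraries with the first one, so it is no separate evidence.

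Synpo measured 78.4, 79.8, 84.9, 81.1 and 75.7 CPM in ARLmon with testosterone, and no library came near the wild type maximum of 51.0 CPM. Its log2 difference was 0.80 (SE 0.09, edgeR adjusted p = 6.8e-07). Nphs1 had the largest difference of the 39, 0.93 (SE 0.13, edgeR adjusted p = 8.2e-06), with its lowest ARLmon library at 34.3 CPM and its highest wild type library at 26.5 CPM. Ptpro followed with 0.91, Nes with 0.83 and Podxl with 0.79, and Magi2 and Kirrel, which had not passed between the wild type groups, were at 0.56 and 0.63. Cd2ap (0.11) and Clic5 (-0.12) did not pass. The podocyte genes were without overlap in 8 of 12, where 9.44% of all tested genes were higher without overlap.

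Among endothelial genes Ehd3 had the smallest p. It measured 41.3, 51.6, 52.2, 53.1 and 48.8 CPM in ARLmon and 28.0, 36.2, 36.8, 38.1 and 32.6 CPM in wild type. No ARLmon library reached down to the wild type range, and the log2 difference was 0.52 (SE 0.11, edgeR adjusted p = 8.9e-04). Nos3, the endothelial nitric oxide synthase, was at 0.66, Plat, tissue plasminogen activator, at 0.62, Cdh5, the junctional cadherin, at 0.56 and Eng at 0.51. Emcn (0.41) and Robo4 (0.40) passed under TMM scaling and were at -0.04 under scaling to distal nephron genes. The call of Tek (0.51, edgeR adjusted p = 0.049) was lost in 16 of 20 fits without 1 library, and those of Robo4, Vwf and Egfl7 in 9, 4 and 3. Among the podocyte and mural genes the calls of Magi2, Cspg4 and Tcf21 were lost in 6, 6 and 2 such fits. The 3 that did not pass were the VEGF receptors Kdr (0.30) and Flt1 (0.27), and Plvap (0.35).

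Rgs5 had the smallest p of the mural genes, with 106, 116, 129.5, 123 and 88.9 CPM in ARLmon and 68.6, 75.6, 59.9, 76.7 and 62.4 CPM in wild type. The groups were apart, and the log2 difference was 0.71 (SE 0.13, edgeR adjusted p = 3.0e-04). Acta2 was at 0.79, Des at 0.76, Tagln at 0.69 and Cnn1 at 0.67. For Acta2, Tagln and Cnn1 the ranges overlapped at GC078615 alone. For Acta2 it read 61.8 CPM, with GC078616 next at 75.2 CPM and the other 3 at 95.1 to 113 CPM. Myh11 (0.41) and Cspg4 (0.26) passed under TMM scaling and were at -0.05 and -0.20 under scaling to distal nephron genes. Mylk went the other way, with 100.1, 137, 146, 148 and 101 CPM in ARLmon, all below the wild type minimum of 167 CPM, and a log2 difference of -0.74 (SE 0.20, edgeR adjusted p = 0.0082).

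**Figure D3:**
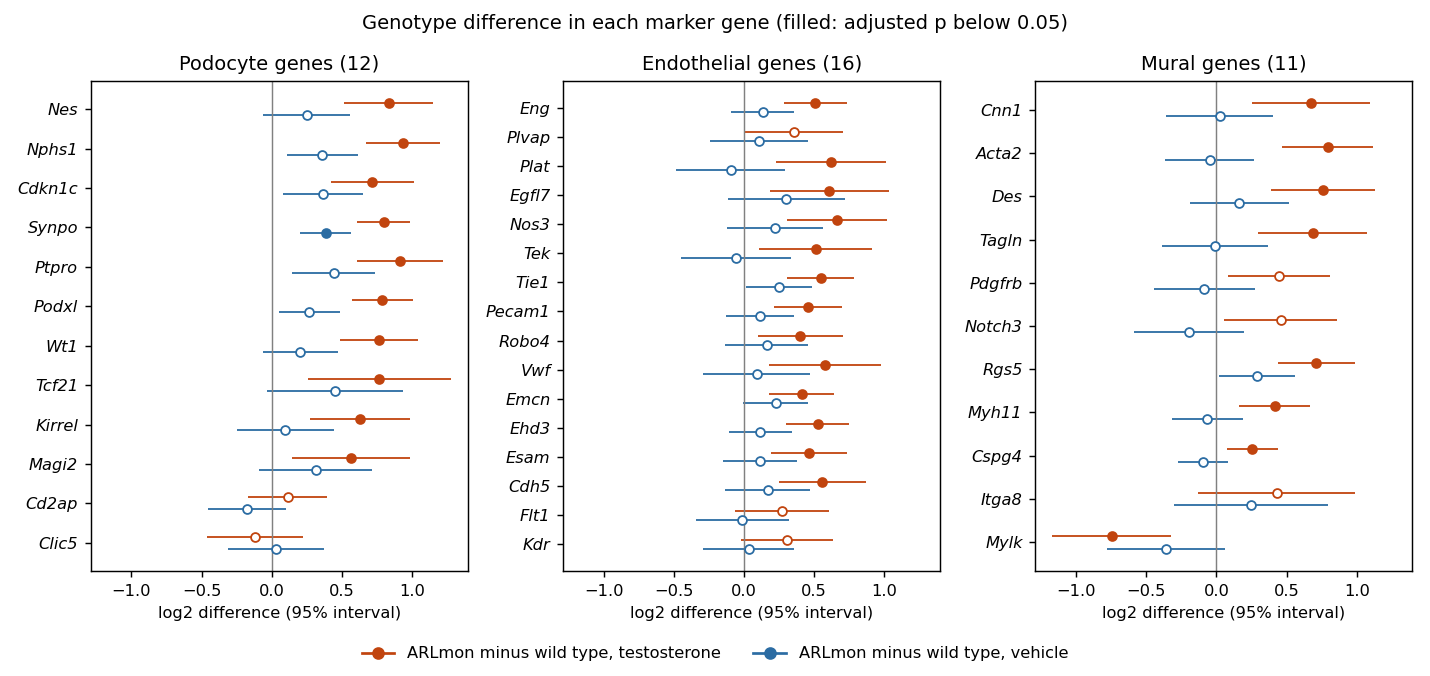
Log2 difference between ARLmon and wild type for each of the 39 genes, under testosterone (orange) and under vehicle (blue), with 95% intervals from the edgeR fit; filled points passed an adjusted p below 0.05. Under testosterone 30 genes are filled on the right and Mylk on the left, and under vehicle only Synpo is filled. Values are under TMM scaling. Scaled to distal nephron genes 1 podocyte, 5 endothelial and 3 mural genes change sign under testosterone, among them the called Emcn, Robo4, Myh11 and Cspg4. Under testosterone Clic5 changes sign under scaling to library size or proximal tubule genes. Under vehicle the distal scaling changes the sign of 5 of 12 podocyte, 12 of 16 endothelial and 3 of 11 mural genes. Library size alone changes 2 endothelial and 3 mural signs under vehicle, and the proximal scaling 2 and 4.

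The difference between the testosterone effects of the genotypes, tested directly, passed for 2 of the 39 genes, where 4.77% of all tested genes passed, 1.42% in the same direction and 3.34% in the other. For Podxl the effect in ARLmon exceeded that in wild type by 0.52 (SE 0.15, edgeR adjusted p = 0.044), and for Acta2 by 0.84 (SE 0.22, edgeR adjusted p = 0.025). Both calls were fragile, with Podxl losing it in 15 of 20 fits without 1 library and Acta2 in 5. The medians were 0.44 for podocyte, 0.35 for endothelial and 0.53 for mural genes, beside 0.02 over all genes. Without GC078604, 5 podocyte, 3 endothelial and 2 mural genes passed. Leaving out each library in turn gave 0 to 5 podocyte, 0 to 3 endothelial and 0 to 2 mural calls. At an unadjusted p below 0.05 (edgeR) there were 7 of 12 podocyte, 4 of 16 endothelial and 9 of 11 mural genes, beside 16.6% of all. For the other 37 genes a different response in the genotypes is not shown by this test after adjustment.

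Set against proximal tubule transcript, all 3 classes had their lowest mean in wild type kidneys with testosterone. Podocyte genes summed to 27.7, 20.8, 19.3, 28.3 and 43.6 reads per 1000 reads of the 20 proximal tubule genes with vehicle and to 16.1, 16.5, 16.3, 15.02 and 19.5 with testosterone. The testosterone libraries were tight, and the lowest vehicle library, GC078604, lay just under the highest of them. Endothelial genes gave 32.02 ± 13.3 with vehicle and 17.9 ± 1.02 with testosterone, and mural genes 21.7 ± 7.63 and 14.5 ± 2.10 (SD, n = 5). In ARLmon the podocyte value was 34.3 ± 4.37 with vehicle and 34.6 ± 3.29 with testosterone, the endothelial 36.8 ± 4.70 and 36.2 ± 5.35, and the mural 22.5 ± 3.11 and 24.4 ± 4.44. The log2 ratio of the wild type means was -0.74 for podocyte, -0.84 for endothelial and -0.58 for mural genes. Without GC078606, which had the highest value in each class, these ratios were -0.53, -0.56 and -0.36.

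Set against distal nephron and collecting duct transcript (18 genes), the same sums hardly differed between the wild type groups. Podocyte genes gave 104.7 ± 17.1 reads per 1000 distal reads with vehicle and 103.2 ± 6.92 with testosterone, endothelial genes 119.5 ± 28.0 and 111.3 ± 11.8, and mural genes 81.5 ± 15.4 and 89.3 ± 7.66. Leaving Cd2ap and Clic5 out of the podocyte sum gave 72.0 ± 13.7 and 60.3 ± 5.75, and leaving Mylk out of the mural sum gave 62.3 ± 12.15 and 54.5 ± 7.04. The genes left out had log2 differences of -0.06 (Cd2ap), 0.32 (Clic5) and 0.61 (Mylk) in wild type. A lower testosterone sum without them is therefore no separate evidence. In ARLmon the podocyte means were 99.0 ± 9.98 with vehicle and 107.1 ± 11.02 with testosterone, and the mural means 65.1 ± 6.81 and 76.0 ± 17.03. Without Mylk the mural means in ARLmon were 52.6 ± 4.91 with vehicle and 60.7 ± 15.4 with testosterone. The latter was above that of wild type with testosterone, but the ranges overlapped (42.5 to 81.8 and 48.0 to 65.1). With Mylk kept, it was below (76.0 against 89.3). Mylk was the mural gene called lower in ARLmon under testosterone, so the order without it is no separate evidence either. No test was run on these sums.

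**Figure D4:**
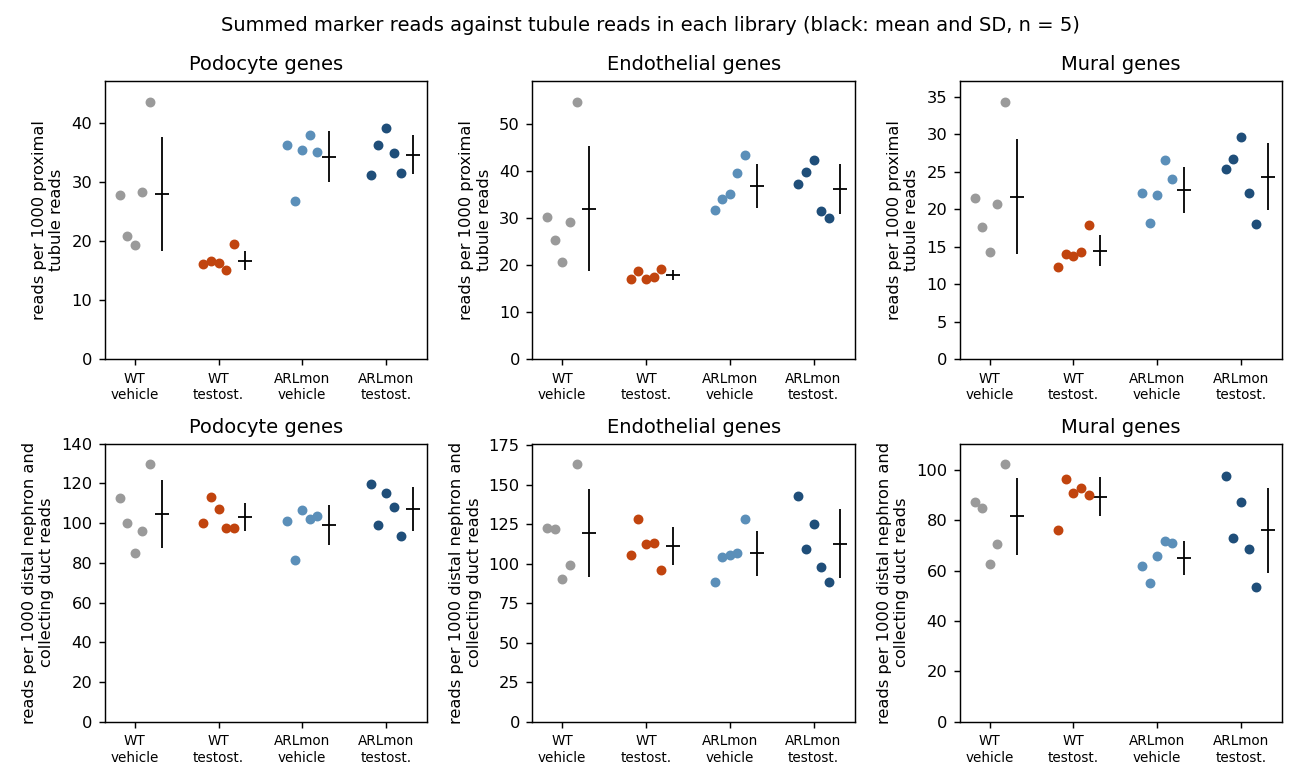
Summed reads of the podocyte, endothelial and mural genes in each library, per 1000 reads of 20 proximal tubule genes (top row) and per 1000 reads of 18 distal nephron and collecting duct genes (bottom row); points are libraries, and black bars give the mean and SD of 5. In the top row wild type with testosterone has the lowest mean in each class (podocyte genes 15.02 to 19.5 by library). In the bottom row the wild type groups overlap in each class, while in the mural panel ARLmon with vehicle lies below wild type with testosterone.

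The reference lists themselves moved. Of the 20 proximal tubule genes 5 rose with testosterone in wild type and 2 fell (median 0.07), beside 9.36% and 6.36% of all tested genes. Their summed level ran from 19841 to 32931 CPM with vehicle and from 34210 to 39638 CPM with testosterone. In ARLmon it ran from 23373 to 27454 CPM with vehicle and from 24539 to 27612 CPM with testosterone. Of the 18 distal genes none passed in wild type (6 at an unadjusted p below 0.05), 17 had a negative sign and the median was -0.23. Under testosterone 12 of them were higher in ARLmon (median 0.51), beside 15.6% of all tested genes. The part of either segment in the marker differences was not tested.

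Scaling the whole table moved the marker genes together with all others. Scaled by library size alone, all tested genes in wild type had a median of -0.18, and the class medians were -0.66, -0.48 and -0.51 for podocyte, endothelial and mural genes. With the proximal genes as reference the overall median was -0.45 and the class medians were -0.95, -0.78 and -0.82. In that fit 11, 16 and 9 genes were called, beside 7630 of all 15549 tested genes, 7200 of them lower. With the distal genes as reference the overall median was 0.23, the class medians were -0.25, -0.06 and -0.10, and no marker gene was called lower. Of all 15549 tested genes 215 were lower and 3690 higher with that reference. Such a change of reference moves all genes by nearly the same amount, so the order of the class medians and the overall median is no sign of stability.

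**Figure D5:**
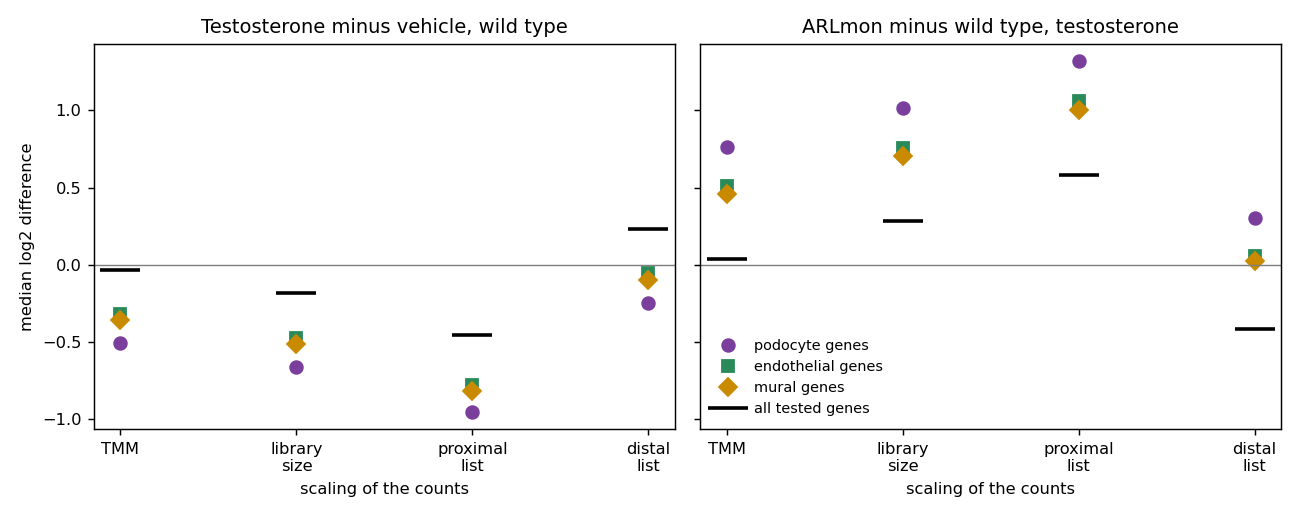
Median log2 difference of the podocyte, endothelial and mural genes, and of all tested genes (black bars), under 4 scalings of the counts, for testosterone minus vehicle in wild type (left) and ARLmon minus wild type under testosterone (right). The reference moves the class medians and the black bar together (on the left, podocyte genes from -0.95 to -0.25).

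Further genes of the same cell types, from lists that hold none of the 39, were counted the same way. In wild type 6.36% of all tested genes were lower with testosterone and 9.36% higher (median -0.03). Of 15 tested further podocyte genes 4 fell with testosterone in wild type and 1 rose (median -0.36). Lmx1b, a podocyte transcription factor, was at -0.80 (SE 0.22) and Sema3g, a secreted semaphorin, at -0.58 (SE 0.12), while Col4a4, a collagen chain of the filter's basement membrane, was at 0.59 (SE 0.18). Of 16 further endothelial genes only Cldn5, a tight junction claudin, fell, by 0.70 (SE 0.21), and the median was -0.29. Of 16 further mural and renin cell genes Smtn, Tpm2, Mcam and Sncg fell and Kcnj8, a potassium channel subunit of vascular muscle, rose by 0.69 (SE 0.17), with a median of -0.35. Ren1, renin, was at -0.60 (SE 0.24) and did not pass. Under testosterone 10, 6 and 9 of these genes were higher in ARLmon, beside 15.6% of all tested genes, with Col4a4 and Kcnj8 lower. The calls of these further lists were not counted under scaling to distal nephron genes.

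Markers of other cells in the tissue were counted the same way, beside the 6.36% lower and 9.36% higher of all tested genes in wild type. Of 10 fibroblast genes 1 fell with testosterone in wild type (Gsn, median -0.16), and their summed level ran from 533 to 618 CPM with vehicle and from 381 to 653 CPM with testosterone. Of 11 tested leukocyte genes 1 rose (Csf1r) and the median was -0.33, with summed levels of 300.4 to 424 CPM and 237 to 381 CPM. None of 5 lymphatic, 6 urothelial, 5 adipocyte and 5 erythroid genes passed in that comparison (edgeR; unadjusted p below 0.05 in 0). Under testosterone, where 15.6% of all tested genes were higher in ARLmon, 2 of 10 fibroblast genes were higher (median 0.54), and 6 of 11 leukocyte genes were higher and 1 lower (median 0.59). The urothelial median was 0.47 (none called by edgeR, 1 of 6 at an unadjusted p below 0.05), and the endothelial and mural medians given above were 0.51 and 0.46. The part of these cells in the marker differences was not tested.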

How the data were processed

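Poly(A) RNA of mouse kidneys was sequenced as 20 stranded libraries, per the labels' protocols. The authors deposited whole-number read counts per gene in 4 tables, made with HISAT2, SAMtools 1.5, HTSeq 2.7.14 (as listed) and the mm10 genome, per the submitters' processing notes, which also name FastQC 0.11.7 and DESeq2. The strand setting and annotation of the counting are not given in the sources used here. A deposited table of log2 expression values of 20550 genes, whose normalization is not stated, was used only as an alternative and to match library codes to groups.

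The count tables were joined by gene symbol. No library had conflicting values, and 12045 values absent from a table, in 1713 genes, were set to 0, none in a marker gene. Genes were filtered with filterByExpr, scaled with TMM and fitted with edgeR 4.0.16 (R 4.3.3) in one quasi-likelihood model of 4 group means with 16 residual degrees of freedom. P-values were adjusted by Benjamini-Hochberg over 15549 genes, and a gene was called at an adjusted p below 0.05. Fold changes are log2 values, and intervals cover 95%. The procedure was tested on simulated data. Exon lengths, overlaps and gene starts came from GENCODE M21, and upstream sequence from RefSeq, both on GRCm38; 25 of 39 genes had an upstream sequence.

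The genes named were, in each class, the 4 with the smallest p in wild type, the smallest p in each other comparison and the gene farthest against the class median; others are given by value. The members and lists were chosen with earlier results of these data known. Alternatives were RLE factors, library size only, proximal or distal tubule genes as reference, leaving out the 10 most abundant genes, other filters, DESeq2 1.42.0, limma-voom (limma 3.58.1), each pair of groups alone and leaving out libraries. Limma on the log2 values and leaving out GC078606, with GC078611 or from the sums, were chosen after seeing the data. So was leaving Cd2ap, Clic5 and Mylk out of the sums. Figures were drawn with matplotlib 3.10.9.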

Additional observations from a re-analysis of the deposited data

Results flagged for a closer look

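In 8 of 92 groups of 5 values, 1 library lay apart from the other 4 by Dixon's criterion, where chance gives about 1 in 20. The library GC078606, wild type with vehicle, accounted for 5 of them, with the highest Nes (78.3 CPM), Acta2 (119.5 CPM), Des (33.9 CPM) and Tagln (112 CPM) and the highest endothelial sum (54.8 reads per 1000 proximal tubule reads). In ARLmon kidneys Nphs1 was low in GC078612 with testosterone (34.3 CPM), Ehd3 was low in GC078619 with vehicle (42.6 CPM), and the podocyte sum was low in GC078618 with vehicle (26.7 reads per 1000 proximal tubule reads). The testosterone effect differed between the genotypes for Podxl, by 0.52 on the log2 scale, and for Acta2, by 0.84, in the edgeR test of that difference. In that test 4.77% of all tested genes passed, and Podxl lost its call in 15 of 20 fits without 1 library and Acta2 in 5.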

How the results depend on the processing

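No paired analysis was possible because the columns carry library codes and not the replicate numbers of the labels. For testosterone against vehicle in wild type, the proximal reference gave 11 podocyte, 16 endothelial and 9 mural calls and the distal reference 1, 0 and 1. Of all 15549 tested genes 7630 were called with the proximal reference, 3905 with the distal and 3585 with library size alone. Library size alone gave 11 endothelial and 8 mural calls, limma-voom 1 endothelial, and the deposited log2 values 9 endothelial. Without GC078604 and GC078618 there were 11 endothelial calls, and without GC078606 and GC078611 1 endothelial and 3 mural. For ARLmon against wild type under vehicle, podocyte calls were 2 with library size, 0 with the proximal reference, 0 in the pair alone and 3 without GC078606 and GC078611. Mural calls were 1 with the distal reference and 1 without that pair of libraries. Of all 15549 tested genes 680 were called in the main fit, 825 with library size, 662 with the proximal reference and 2785 with the distal. It was 330 of 15188 in the pair alone and 693 of 15681 without GC078606 and GC078611. Under testosterone the distal reference gave 5 podocyte, 0 endothelial and 1 mural calls, both directions together, beside 355 higher and 7161 lower of all 15549 tested genes. For the difference between the testosterone effects, podocyte calls were 5 with library size, 5 with the proximal reference, 0 with the distal reference, 0 without the filter, 3 with DESeq2, 0 with limma-voom, 3 without GC078604 and GC078618, 0 without GC078606 and GC078611 and 4 on the log2 values. Endothelial calls were 1, 2 and 3 with library size, the proximal reference and without GC078604 and GC078618. Mural calls there were 3 with library size, 5 and 0 with the proximal and distal references, 2 without GC078604 and GC078618, 0 without GC078606 and GC078611 and 2 on the log2 values. With the distal genes as denominator the summed podocyte, endothelial and mural log2 ratios were -0.022, -0.10 and 0.13 for testosterone in wild type and 0.055, 0.018 and -0.23 for genotype under testosterone. The geometric mean of the genes' CPM, in place of the summed share of the library, gave 0.64 for podocyte and 0.49 for endothelial genes for genotype under testosterone.

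Among the called or rule-named genes, signs reversed for Clic5 in wild type with the proximal reference (-0.10). With the distal reference they reversed for Kdr in wild type (0.15) and, for genotype under testosterone, for Emcn (-0.042), Robo4 (-0.042), Myh11 (-0.049) and Cspg4 (-0.20). Counting uncalled genes too, the distal reference turned 2 podocyte, 3 endothelial and 1 mural sign in wild type and 1, 5 and 3 for genotype under testosterone. For genotype under vehicle it turned 5, 12 and 3. The proximal reference turned Clic5 and Itga8 in wild type and Clic5 for genotype under testosterone. Under vehicle it turned 2 endothelial and 4 mural signs for genotype. Sums without GC078606, chosen after seeing the data, kept their sign. Leaving out each library in turn gave 6 to 8 podocyte, 1 to 9 endothelial and 3 to 6 mural calls for testosterone in wild type and 0 in ARLmon. It gave 0 to 2, 0 and 0 to 1 for genotype under vehicle, 8 to 10, 10 to 13 and 7 to 10 under testosterone, and 0 to 5, 0 to 3 and 0 to 2 for the difference between effects. Apart from the references, whose construction moves all genes, the cause was not tested. Depth was lowest in wild type with testosterone, and the least abundant marker, Cnn1, had 11 reads in 1 library.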
